A study of Saccharomyces cerevisiae with 5 samples.

Results

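The proteins described here are those of the large subunit of the mitochondrial ribosome of Saccharomyces cerevisiae, read through the transcripts of their nuclear genes. They were taken as a named set of 41 genes, each through the probe sets that the array's annotation assigns to that gene alone, out of 5656 genes with such a probe set in the series. All 41 genes were found, with 42 probe sets between them, since MRPL44 had more than 1. Each of the 41 also passed the filter that left out genes of low signal, so every member entered the test of 4243 genes. The groups were Δrsf2, an isogenic mutant of BY4741 that lacks RSF2 (YJR127C, also called ZMS1, a gene for a zinc-finger protein), on 2 arrays, compared with the wild-type parent BY4741 on 3 arrays. BY4741 is a haploid laboratory strain that carries deletions of HIS3, LEU2, MET15 and URA3, which both groups therefore share by descent. Cells of both groups grew in 50 ml of rich medium with glycerol, which yeast can use only by respiration, to an A600 of 0.6, as the source label of each sample gives it, and poly(A) RNA of each biological replicate was hybridised to 1 array. A treatment text shared by all samples instead describes cells moved from dextrose medium into glycerol medium for some time. No label gives such a time, so whether the values reflect steady growth or a recent shift is not settled by the labels. Whether the Δrsf2 replicates came from 1 clone or several was not stated in the labels, and in bulk RNA fewer expressing cells and less RNA per cell cannot be told apart.

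Mitochondria translate the few proteins encoded by their own DNA, most of them core subunits of the respiratory chain and of the ATP synthase, on ribosomes that descend from those of bacteria. In yeast the ribosomal RNAs of both subunits are made in the mitochondrion, while the proteins of the large subunit are encoded in the nucleus, made in the cytosol and imported. The large subunit forms the peptide bond and holds the tunnel through which the new chain leaves towards the inner membrane. Its proteins fall into those with counterparts in all ribosomes, those shared only with bacteria and those specific to mitochondria, which uniform names mark as uL, bL and mL. In yeast loss of most of them prevents growth on glycerol.

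The question put to these arrays is which transcripts need RSF2 in glycerol medium. The values are MAS5 signals in arbitrary units, brought to a common trimmed mean and quantile normalised, and a log2 difference is always Δrsf2 minus wild type. Signals of different genes come from different probes and are not set against each other. RSF2 itself had deposited signals of 1.9 and 3.3 in Δrsf2 replicates 1 and 2, against 203.8, 253.9 and 415.9 in the wild-type arrays, so all 5 labels match the genotype. These are signals before rescaling, when the trimmed mean was 100.1 in Δrsf2 replicate 1 and 500.3 to 500.7 in the other arrays. The control probe sets differed between arrays, some across the genotypes and some with them. The CreX spike-in, a control transcript, read 59709 in Δrsf2 replicate 1, 56025 in wild-type replicate 1, and between 2715 and 9393 in the other 3 arrays, all after scaling. The first 2 arrays are called the high spike-in set and the other 3 the low set. The 3' probe set of ACT1 exceeded the 5' probe set by factors of 4.91 and 1.55 in Δrsf2 replicates 1 and 2, and of 1.69 to 2.76 in the wild type. The control probe sets for the cytosolic 18S and 25S rRNA moved with the genotype. Of 10 such probe sets 9 were lower in both Δrsf2 arrays than in all wild-type arrays, and their median scaled signal was 421 and 286 in Δrsf2, against 1423, 1389 and 1503 in the wild type. The part of these differences, rRNA included, in the results below was not tested. Having only 5 arrays sets the limit on precision.

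Most large-subunit genes had lower signals in Δrsf2 by value, as did the rRNA control probe sets, and the part of the controls' difference in that of the genes was not tested. Of 41 genes 35 had a negative log2 difference. The 6 with a positive one were MRPL28, MRPL31, MRPL16, MRP20, MRPL44 and RML2, each of them negative in the values as deposited. In the values as deposited, a lower trimmed mean of Δrsf2 replicate 1 lowers log2 differences in general, and the median of all genes was -1.19. The same limit applies wherever a sign as deposited is given below. In the reported setting 85.4% of members were thus lower, beside 56.6% of all genes tested. The median log2 difference was -0.48 for the 41 genes and -0.077 for all genes, and the members' quartiles were at -0.82 and -0.13. The members ran from -1.26 for MRPL49 to 0.47 for MRPL28. Both Δrsf2 arrays lay below all 3 wild-type arrays for 13 members, which is 31.7% of them, beside 12.7% of all genes. Of these, MRPL49, MRPL23 and MRPL20 were at least 2-fold lower, 3 of 41 members beside 3.89% of all genes. No member had both Δrsf2 arrays above all wild-type arrays, beside 7.33% of all genes.

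No member passed the test, and neither did the deleted gene RSF2 (log2 difference -3.30, limma adjusted p = 0.154). With limma, 0 of 41 members had an adjusted p under 0.05, as 0 of 4243 genes did (0%), and the members' adjusted p-values lay between 0.911 and 0.999. At an unadjusted p under 0.05 limma gave 5 lower members and 0 higher ones, or MRPL49, MRPL23, MRPL40, MRPL20 and MRPL35, beside 3.94% and 1.39% of all genes. The differences below are therefore values that did not pass this test. The counts also depended on single arrays. Without Δrsf2 replicate 1 the median was -0.80 and 32 members were lower without overlap, beside 34.6% of all genes. Without Δrsf2 replicate 2 the median was -0.15 and the count 20, beside 39.1% of all genes.

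**Figure D1:**
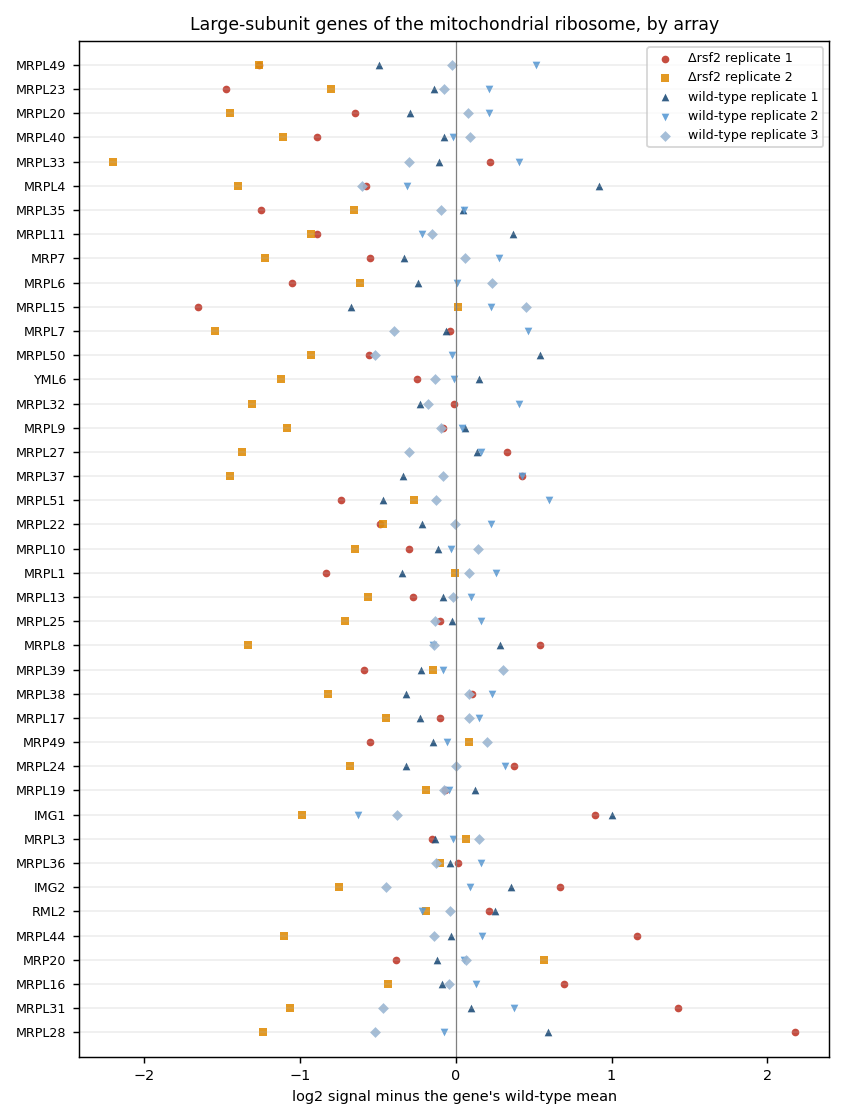
Log2 signal of each of the 41 genes in each of the 5 arrays, less the gene's wild-type mean, with 1 row per gene in the order of the log2 difference and 1 symbol per array. Squares of Δrsf2 replicate 2 lie left of 0 for 37 genes and circles of Δrsf2 replicate 1 for 27, beside 2209 and 2382 of all 4243 genes tested. The 2 symbols spread far apart for MRPL28, MRPL31 and MRPL44.

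The 6 members of smallest unadjusted p, a choice made on these same arrays that favours separated groups, had Δrsf2 signals below every wild-type signal. MRPL49, the counterpart of bacterial bL21, had signals of 422 and 422 in Δrsf2 replicates 1 and 2, against 721, 1445 and 996 in wild-type replicates 1 to 3. The Δrsf2 arrays gave nearly equal values, and the wild-type arrays spread widely above them; the log2 difference was -1.26 ± 0.42 (SE, limma adjusted p = 0.911). MRPL23, a homologue of uL13, had 335 and 535 in the Δrsf2 arrays and 847, 1084 and 885 in the wild-type arrays. Its difference of -1.14 ± 0.39 was larger in Δrsf2 replicate 1 than in replicate 2, and all 5 signals kept the groups apart.

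MRPL40, the homologue of uL24 at the rim of the peptide exit tunnel, had 416 and 357 in Δrsf2 replicates 1 and 2, against 729, 760.4 and 821 in wild-type replicates 1 to 3. Here both groups were tight, with means of 386 ± 41.4 (SD, n = 2) in Δrsf2 and 770.3 ± 46.5 (SD, n = 3) in the wild type, and the log2 difference was -0.998 ± 0.35 (SE). For MRPL20, a protein that only mitochondrial ribosomes have, signals were 713 and 409 in the Δrsf2 arrays and 909, 1293 and 1179 in the wild-type arrays, a difference of -1.05 ± 0.41. The lowest wild-type array and the higher Δrsf2 array of this gene were closer to each other than the Δrsf2 arrays were. MRPL35, part of the central protuberance that faces the small subunit, was at 127 and 192 in the Δrsf2 arrays and 311, 313 and 283 in the wild-type arrays. All 3 wild-type values lay close together and both Δrsf2 values well below them, for a log2 difference of -0.95 ± 0.39 (SE). MRPL11, the homologue of uL10 that carries the flexible stalk, had 149 and 145 in Δrsf2 replicates 1 and 2, against 357, 238 and 249 in wild-type replicates 1 to 3. The Δrsf2 arrays were nearly equal for this gene, and wild-type replicate 1 stood above the other wild-type arrays. Its difference was -0.91 ± 0.40, and in limma each of the 6 had an adjusted p of 0.911.

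**Figure D2:**
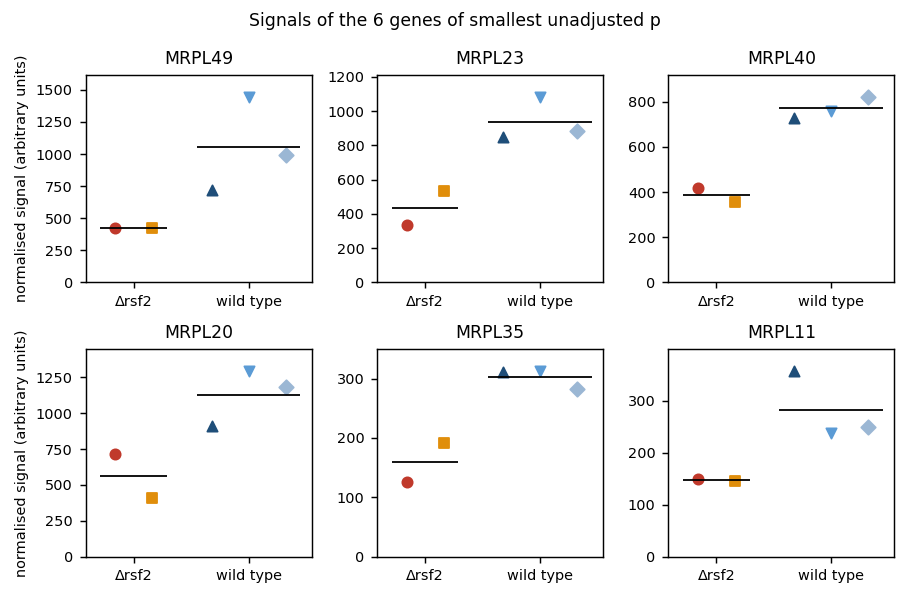
Normalised signals (arbitrary units, linear axis from 0) of the 6 genes in each array, with the 2 Δrsf2 arrays left and the 3 wild-type arrays right in each panel and lines at the group means. The genes were chosen by smallest unadjusted p on these same arrays, which favours panels without overlap. The groups do not overlap in any of the 6 panels, and for MRPL11 the Δrsf2 values of 149 and 145 lie under a lowest wild-type value of 238.

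Around the exit of the tunnel, where the new chain meets the inner membrane, 4 of 5 members were lower by value, beside 56.6% of all genes. The median difference was -0.48 (log2). Relative to the wild-type mean, the median member there was at -0.48 in Δrsf2 replicate 1 and -1.11 in replicate 2. Beside MRPL40 the lower ones were MRPL4, MRPL22 and MRPL8. MRPL4, the homologue of uL29, had 347 and 197 in the Δrsf2 arrays and 979, 415 and 339.9 in the wild-type arrays, and its groups overlapped because Δrsf2 replicate 1 and wild-type replicate 3 were almost equal. Its difference was -0.99 ± 0.55 (SE). MRPL22, the homologue of uL22 that lines the tunnel, was lower without overlap, at 187 and 189 in the Δrsf2 arrays and 226, 306 and 260.4 in the wild-type arrays, a smaller difference of -0.48 ± 0.38. In MRPL8, the counterpart of bL17, the Δrsf2 arrays stood on opposite sides of the wild type, with 1943 and 530.2 in Δrsf2 replicates 1 and 2, against 1624, 1209 and 1213 in wild-type replicates 1 to 3. MRP20, the homologue of uL23 that docks proteins of the membrane insertion machinery, had a log2 difference of 0.091 ± 0.43 (SE). Its signals were 181 and 348 in the Δrsf2 arrays and 217, 245 and 246 in the wild-type arrays, the only member for which Δrsf2 replicate 2 lay above all wild-type arrays.

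In the core near the peptidyl transferase centre, the site of peptide bond formation, 2 of 4 members were lower and 2 higher by value. YML6, the homologue of uL4, had 605 and 329.7 in Δrsf2 replicates 1 and 2, against 796, 711 and 654 in wild-type replicates 1 to 3, lower without overlap, with a difference of -0.69 ± 0.41 (SE). MRPL9, the homologue of uL3, was at -0.58: its Δrsf2 replicate 1, at 1032, lay inside the wild-type range, and replicate 2, at 515, lay well under it. RML2, the homologue of uL2, had 578 and 436 in the Δrsf2 arrays and 594, 429 and 484 in the wild-type arrays, so that the groups were interleaved at a difference of 0.013 ± 0.37. MRPL16, the homologue of uL16, had 1075 and 492 in the Δrsf2 arrays and 625, 726 and 645 in the wild-type arrays, with the Δrsf2 arrays above and below all wild-type arrays and a difference of 0.13 ± 0.44. RML2 and MRPL16 were both lower by value in the values as deposited and with arrays centred on their medians.

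The stalks, mobile arms that guide tRNA and translation factors, had 3 of 3 members lower by value, beside 56.6% of all genes. Beside MRPL11 they hold MRPL1, the homologue of uL1, with 142 and 253 in the Δrsf2 arrays and 199, 304 and 269 in the wild-type arrays. Only Δrsf2 replicate 1 was under the wild-type range for MRPL1, and wild-type replicate 1 was the lowest of its group; the log2 difference was -0.42 ± 0.44 (SE). MRPL19, the homologue of uL11, varied least of the 3 stalk genes, with 287 and 264 in the Δrsf2 arrays and 328, 292 and 285 in the wild-type arrays and a difference of -0.13.

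In the central protuberance 5 of 6 members were lower by value, beside 56.6% of all genes, and the median was -0.53 (log2). Relative to the wild-type mean, its median member was at -0.068 in Δrsf2 replicate 1 and -0.94 in replicate 2. MRP7, the counterpart of bL27, was lower without overlap, with 458 and 287 in the Δrsf2 arrays and 533, 811 and 698 in the wild-type arrays and a difference of -0.89 ± 0.41 (SE). MRPL7, the homologue of uL5, was at -0.79, with Δrsf2 replicate 1 inside the wild-type range at 401 and replicate 2 at 141, against 312 to 566 in the wild type. MRPL17 had -0.27 and MRPL36, the counterpart of bL31, -0.043, both with overlapping groups. MRPL28 had the highest difference of the set, 0.47 ± 0.92 (SE), and also its largest error. Its signals were 4883 and 458 in Δrsf2 replicates 1 and 2, against 1628, 1023 and 752 in wild-type replicates 1 to 3. The Δrsf2 arrays thus enclosed the wild-type range on both sides, and the sign turned to -1.24 without Δrsf2 replicate 1 and to -0.69 in the values as deposited.

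Of the other members with counterparts in all ribosomes, MRPL6, MRPL10, MRPL33 and MRPL38 were also lower by value. MRPL6, the homologue of uL6, had 301 and 408 in Δrsf2 replicates 1 and 2, against 528, 628 and 735 in wild-type replicates 1 to 3, with no overlap and a log2 difference of -0.83 ± 0.38 (SE). MRPL10, the homologue of uL15, was lower without overlap at a smaller difference of -0.48 ± 0.36, with 706 and 556 in the Δrsf2 arrays and 805, 852 and 963 in the wild-type arrays. In MRPL33, the homologue of uL30, only Δrsf2 replicate 2 was low, for a difference of -0.99 ± 0.68, with 3439 and 642 in the Δrsf2 arrays and 2734, 3914 and 2399 in the wild-type arrays. MRPL38, the homologue of uL14, was likewise low only in replicate 2, at 1300.2 and 685 in the Δrsf2 arrays against 969 to 1425 in the wild type. Over the 17 members of this class the median difference was -0.58, 14 were lower by value and 7 were lower without overlap (41.2%, beside 12.7% of all genes). The median was -0.80 leaving out Δrsf2 replicate 1 and -0.30 leaving out replicate 2.

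All 9 members shared only with bacteria had negative differences, their median log2 difference being -0.40, and 3 of them were lower without overlap (33.3%, beside 12.7% of all genes). Their median was -0.98 without Δrsf2 replicate 1 and -0.014 without Δrsf2 replicate 2. Within the high spike-in set, 1 array against 1, MRPL32, MRPL36, MRPL8 and MRPL24 turned positive, and IMG1 did so with array weights. When single arrays were left out, the sign also turned for IMG1 (without wild-type replicate 1 or Δrsf2 replicate 2), for MRPL24 and MRPL36 (without wild-type replicate 2 or Δrsf2 replicate 2) and for MRPL8 (without Δrsf2 replicate 2). Beside MRPL49 and MRP7, the members without overlap included MRPL50, the counterpart of bL9, with 128 and 99.2 in the Δrsf2 arrays and 275, 185 and 132 in the wild-type arrays and a difference of -0.74 ± 0.48 (SE). Its Δrsf2 replicate 1 and wild-type replicate 3 nearly touched. MRPL32, the counterpart of bL32, whose maturation by the m-AAA protease of the inner membrane is needed for ribosome assembly, had 614 and 250.1 in the Δrsf2 arrays and 529, 820.0 and 549 in the wild-type arrays. Only Δrsf2 replicate 2 was apart from the wild type for MRPL32, at a difference of -0.66 ± 0.49. MRPL24, the counterpart of bL28, had a difference of -0.15, with 806 and 389 in the Δrsf2 arrays on either side of 499 to 777 in the wild type. MRPL39, the counterpart of bL33, was at -0.37 ± 0.36 with overlapping groups. IMG1, the counterpart of bL19, first named for the integrity of the mitochondrial genome, had 2049 and 557 in Δrsf2 replicates 1 and 2, against 2204, 714 and 849.6 in wild-type replicates 1 to 3. Both replicates numbered 1 were high for IMG1 and the other 3 arrays low, and these 2 are also the arrays of high spike-in signal; the difference of the groups was -0.044 ± 0.70.

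Of the 15 members specific to mitochondria 12 were lower by value (median -0.41, log2), and 3 were lower without overlap, namely MRPL20, MRPL35 and MRPL13 (20%, beside 12.7% of all genes). Their median was -0.71 when Δrsf2 replicate 1 was left out and -0.10 when replicate 2 was. MRPL13 had 559 and 458 in the Δrsf2 arrays and 639, 725 and 668 in the wild-type arrays, a modest difference of -0.42 ± 0.35 (SE). MRPL25, also called AFO1, was at -0.41 ± 0.38 and MRPL51 at -0.50 ± 0.44, and in each 1 Δrsf2 array lay inside the wild-type range. In MRPL27 and MRPL37 Δrsf2 replicate 2 was far below the wild type and replicate 1 was at or above its top: MRPL27 had 919.8 and 283 in the Δrsf2 arrays and 807, 819 and 595 in the wild-type arrays. MRPL37 had 2717 and 744 in the Δrsf2 arrays and 1600.1, 2717 and 1919 in the wild-type arrays. Opposite to these, MRPL15 was low in Δrsf2 replicate 1 only, with 153 and 488 in the Δrsf2 arrays and 302, 564 and 658 in the wild-type arrays and a difference of -0.82 ± 0.60, and its probe set is marked as possibly shared with other transcripts. MRP49 was at -0.23, MRPL3 at -0.044 and IMG2 at -0.039, each with overlapping groups.

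The highest values among the mitochondria-specific members after MRPL28 were those of MRPL31 and MRPL44. MRPL31 had 1606 and 287 in Δrsf2 replicates 1 and 2, against 641, 775 and 433 in wild-type replicates 1 to 3, a log2 difference of 0.18 ± 0.71 (SE). MRPL44 had 1628 and 339 in the Δrsf2 arrays and 712, 816 and 659 in the wild-type arrays, a difference of 0.033 ± 0.64. In both genes Δrsf2 replicate 1 was at more than the highest wild-type signal and replicate 2 at less than the lowest. The signs of MRPL31 and MRPL44 turned in the values as deposited, with arrays centred on their medians and in the fit that blocks on spike-in set, and that of MRPL44 also under scaling alone. A second probe set of MRPL44 gave 69.2 and 85.0 in the Δrsf2 arrays and 79.3, 63.7 and 66.3 in the wild-type arrays. It was dim on every array, under the 130.3 of the filter on low signals, and did not show the split between the Δrsf2 arrays. Signals this dim cannot decide whether the split holds for the gene. With the mean of both probe sets the difference was 0.088.

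The Δrsf2 arrays differed from each other across the set. Relative to the wild-type mean, the median member was at -0.15 in Δrsf2 replicate 1 and -0.80 in replicate 2, against -0.087, 0.13 and -0.078 in wild-type replicates 1 to 3. The median of replicate 1 was thus little below the lowest wild-type median, and that of replicate 2 lay far below all of them. Among the wild-type arrays, replicate 1 was the lowest for 22 members (53.7%, beside 38.7% of all genes). Over all genes the array medians were -0.11 in Δrsf2 replicate 1 and -0.040 in replicate 2. Δrsf2 replicate 2 lay below all wild-type arrays for 32 of 41 members (78%, beside 34.6% of all genes). Δrsf2 replicate 1 did so for 20 (48.8%, beside 39.1%) and lay above all wild-type arrays for 8 (19.5%, beside 28%).

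Those 8 members were MRPL28, MRPL31, MRPL44, MRPL16, IMG2, MRPL8, MRPL24 and MRPL27, and in all 8 of them Δrsf2 replicate 2 was below all wild-type arrays, 19.5% of the set, an arrangement found in 11.8% of all genes. Of the 8, 5 are specific to mitochondria. Both Δrsf2 arrays were below the wild-type mean for 23 members, only replicate 2 for 14, only replicate 1 for 4 and neither for 0. Of all 4243 genes tested, 26.5% had both below and 18.3% neither, with 1084 genes low only in replicate 2 and 1257 only in replicate 1. The 4 members low in replicate 1 only were MRPL15, MRP49, MRP20 and MRPL3. The median SD of a member was 0.57 between the Δrsf2 arrays and 0.26 among the wild-type arrays on the log2 scale, beside 0.57 and 0.33 for all genes.

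The split between the Δrsf2 arrays was set against gene length, a choice made after these values were seen. Of the 20 members with a coding length under 645 bases (introns included), 10 were above the wild-type mean in Δrsf2 replicate 1. Of the 21 longer members 4 were. Among all genes tested it was 385 of 835 shorter and 1476 of 3408 longer ones, and in the small subunit 6 of 13 and 9 of 18. The median log2 difference of Δrsf2 replicate 1 minus replicate 2 was 0.86 in the shorter and 0.34 in the longer members, and 0.047 and -0.14 for all genes divided at the same length. In the small subunit it was 0.56 in the 13 shorter and 0.94 in the 18 longer genes. Spearman's rho between length and this split was -0.27 over the 41 members, 0.077 over the small-subunit genes and -0.037 over all genes; the points share the same 2 arrays, and a relation this weak is given as a description. The median group difference was -0.39 in the shorter and -0.48 in the longer members, of which 4 and 9 were lower without overlap. Of all genes tested, 115 of 835 shorter and 422 of 3408 longer ones were lower without overlap. The difference by length was not tested.

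**Figure D3:**
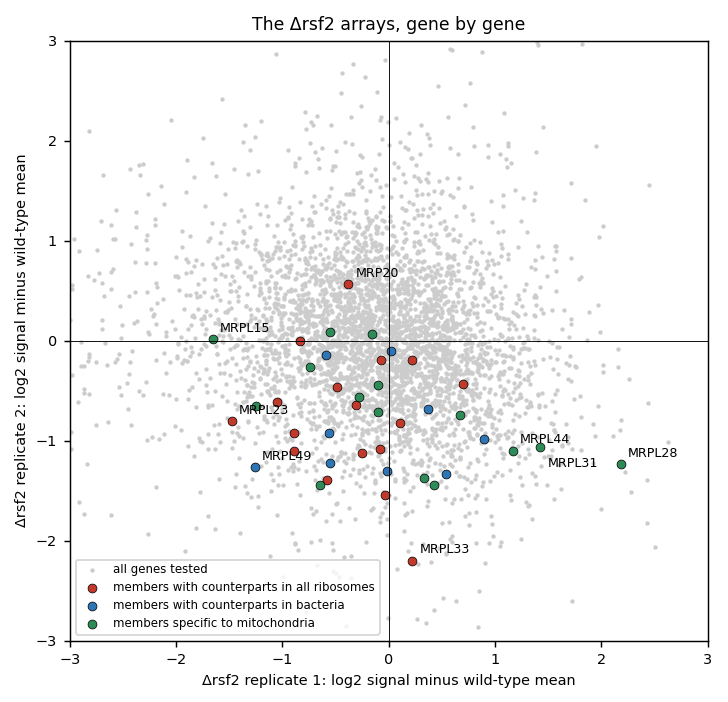
Each gene's log2 signal less its wild-type mean in Δrsf2 replicate 1 (horizontal) and in Δrsf2 replicate 2 (vertical), with all 4243 genes tested in grey and the 41 members in colour by class; 78 genes lie beyond the axes at 3. The members sit mostly below 0 on the vertical axis, and 23 of them are below 0 on both axes, beside 26.5% of all genes tested.

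Arrays of high and of low spike-in signal were also compared apart, since each kind holds both genotypes. Between Δrsf2 replicate 1 and wild-type replicate 1, the pair of high signal, the members' median log2 difference was -0.19, with 26 of 41 lower, beside -0.11 for all genes, of which 55.5% were lower. Between Δrsf2 replicate 2 and wild-type replicates 2 and 3 it was -0.73, with 36 of 41 below both wild-type arrays, beside -0.049 and 43.9% of all genes. In this second fit limma gave 64 genes an adjusted p under 0.05, none of them a member, and the smallest adjusted p of a member was 0.0663; the single Δrsf2 array was assumed to vary like the wild type. The median was negative in both sets, and whether the sets differ was not tested.

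The small subunit, which decodes the mRNA, was listed for comparison. Of its 34 protein genes 31 were tested, 27 were lower by value and 4 higher, the median log2 difference being -0.34, and 9 were lower without overlap (29%, beside 12.7% of all genes). The median was -0.80 without Δrsf2 replicate 1, -0.076 without Δrsf2 replicate 2 and -0.0059 within the high spike-in set. Their array medians were -0.076 in Δrsf2 replicate 1 and -0.80 in replicate 2, against -0.17, 0.28 and -0.080 in the wild type. The 2 small-subunit genes of smallest p were MRPS8, at -2.04 ± 0.73 (SE), and MRPS17, at -1.13 ± 0.44. Further proteins of the large subunit outside the set, 5 in all, had 4 of 4 tested genes lower, with a median of -0.43 that turned to 0.060 without Δrsf2 replicate 2 and 0.20 within the high spike-in set, among them MNP1, the counterpart of the stalk protein bL12, at -0.96 ± 0.72, and MHR1 at -0.57 ± 0.45.

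Genes for factors that work with this ribosome were listed too. Of 12 translation factors 8 were tested and 7 were lower by value (median -0.090, log2). This median was 0.32 within the high spike-in set and 0.00070 without wild-type replicate 2, -0.47 when Δrsf2 replicate 1 was left out and -0.40 when wild-type replicate 1 was. TUF1, the elongation factor that brings tRNA, was lower without overlap, with 622 and 750.2 in the Δrsf2 arrays and 892, 2006 and 1581 in the wild-type arrays and a difference of -1.05 ± 0.45 (SE). MEF2 was at -0.52 ± 0.54. Among genes of assembly and rRNA modification 5 of 9 were lower, with a median of -0.40 that turned to 0.35 within the high spike-in set and 0.14 without Δrsf2 replicate 2, and the 2 rRNA methyltransferases of smallest p had differences of opposite sign without overlap. MRM1, which modifies the large-subunit rRNA, had 159 and 267 in the Δrsf2 arrays and 421, 454 and 496 in the wild-type arrays, a difference of -1.15 ± 0.40. MRM2, which modifies the same rRNA, had 199 and 183 in the Δrsf2 arrays and 109.7, 108 and 120.3 in the wild-type arrays, a difference of 0.76 ± 0.41, and of -0.16 in the values as deposited. Of the genes for membrane insertion of new chains 3 of 5 were lower. Their median of -0.12 turned to 0.080 with array weights, 0.16 within the high spike-in set, 0.56 when Δrsf2 replicate 2 was left out and 0.26 when wild-type replicate 1 was. Among them were MBA1, a ribosome receptor of the inner membrane, at -0.82 ± 0.43 and MDM38 at 0.29 ± 0.41, or -0.92 in the values as deposited.

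The large subunit of the cytosolic ribosome was centred near 0. Its 47 genes with a probe set assigned to 1 gene alone, of 81 in the gene table, had a median log2 difference of 0.052, with 22 lower and 25 higher by value. Both counts without overlap, 6 lower (12.8%) and 3 higher (6.38%), were near the 12.7% and 7.33% of all genes. RPL9B was at 0.81 ± 0.36 (SE), or -0.45 in the values as deposited, and RPL15A at -0.78 ± 0.38, and the signal of either can include that of a near-identical paralog. The sign of the cytosolic median turned to -1.03 in the values as deposited, -0.078 with the replicate block, -0.029 within the high spike-in set, -0.12 when Δrsf2 replicate 1 was left out and -0.078 when wild-type replicate 3 was. It also turned to -0.075 with arrays centred on their medians, where the mitochondrial large subunit was at -0.70. In all of these lists 0 genes passed limma at an adjusted p under 0.05 in the reported setting, and the differences between lists were not tested.

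**Figure D4:**
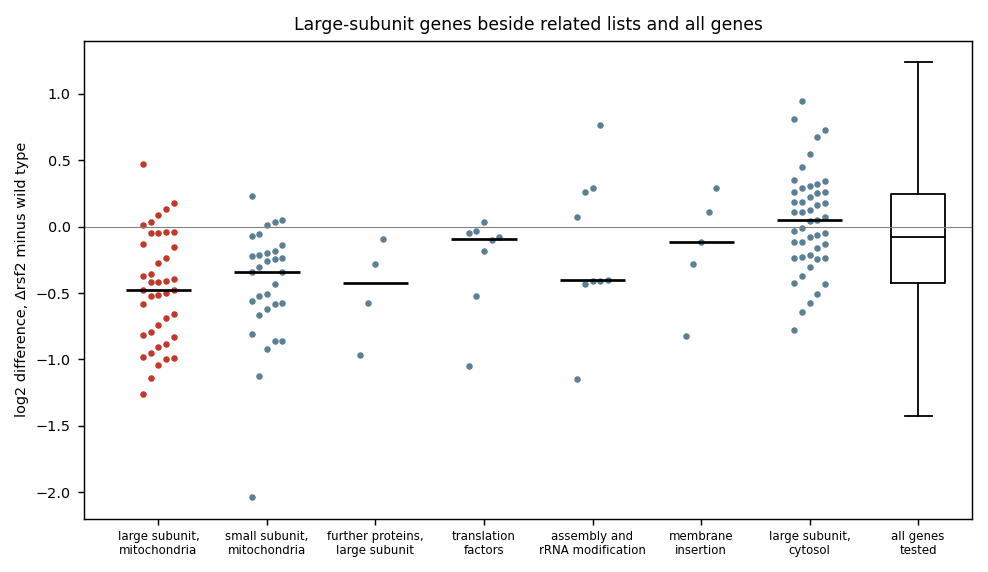
Log2 difference of Δrsf2 minus wild type for each tested gene (points), by list, with list medians as black lines, and the spread of all 4243 genes as a box (quartiles, with whiskers to the last gene within 1.5 times the box). The large subunit of the mitochondrial ribosome is centred on -0.48 and that of the cytosolic ribosome on 0.052, or -0.075 with arrays centred on their medians.

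On the chromosomes no member had another member as its direct neighbour in the gene table. MRPL1 lay next to MRX14, which encodes the counterpart of bL34, and these neighbours had log2 differences of -0.42 and -0.091. MRPL24 lay next to RPL36A, a gene of the cytosolic large subunit, at -0.15 and 0.29. Both neighbours are named because they belong to the lists compared above. The tested neighbours of all members ran from -1.76 (WSC2, next to MRPL10) to 1.46 (ORA1, next to MRPL44). Whether neighbours share a direction was not tested.

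The direction of the median held for each of the 20 alternative settings, while its size did not. It was -0.49 with arrays scaled to a common trimmed mean and no quantile step, and -0.70 with arrays centred on their medians, where the median of all genes was -0.23 and 20 members were lower without overlap, beside 16.3% of all genes. In the values as deposited, in which Δrsf2 replicate 1 had a lower trimmed mean, all 41 members were lower with a median of -1.65, beside -1.19 for all genes. Of the 41 members 20 kept their sign in each setting that tested them and 21 did not.

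**Figure D5:**
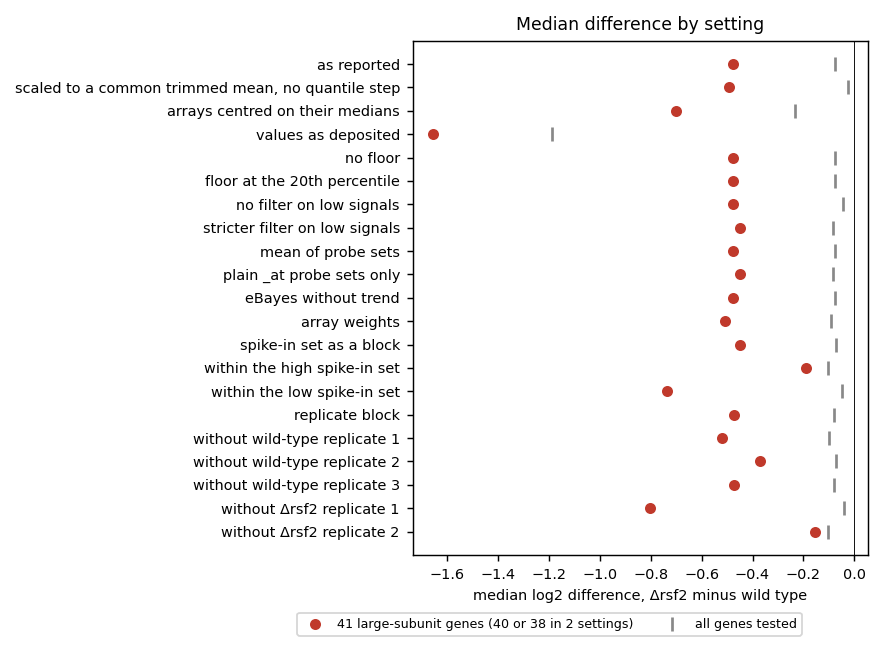
Median log2 difference of the large-subunit genes (circles) and of all genes tested (bars) under the reported setting and 20 alternatives. The circles lie left of 0 throughout, between -1.65 in the values as deposited and -0.15 without Δrsf2 replicate 2.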

How the data were processed

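Poly(A) RNA of 2 Δrsf2 and 3 wild-type biological replicates, grouped by their titles, was measured on 1 one-colour Affymetrix array each. The authors deposited a signal intensity for each probe set on a linear scale, computed by MAS5 per the submitters' processing notes. The MAS5 version and settings are not given in the sources used here. Their 2% trimmed means were 100.1 and 500.3 in Δrsf2 and 500.3 to 500.7 in the wild type, so 1 array was deposited on a lower scale. Signals were rescaled to give every array a trimmed mean of 500, quantile normalisation followed over the 9275 non-control probe sets, a floor at the 10th percentile (29.5) was set and log2 was taken. This hides any change in total mRNA. All 6504 probe sets with 1 gene matched the R64 gene table by gene identifier; it served for names, lengths and neighbours. The brightest probe set stood for a gene, and genes whose mean lay below the 25th percentile (130.3 in linear signal) were dropped, except RSF2. Groups were compared with limma 3.58.1 in R 4.3.3 (lmFit, eBayes with trend, group as the only term, Benjamini-Hochberg over 4243 genes, threshold 0.05), after a test on simulated data. Errors of log2 differences are SE. The members and lists were chosen with earlier results of these data known. Signals of every array were given by rule for the 10 members of smallest p, the 6 of highest difference and genes with several probe sets; other members' signals were added after their values were seen. From each list the 2 genes of smallest p were named. Each alternative without 1 Δrsf2 array assumes that the other varies like the wild type. Alternatives were the normalisation, floor, filter, choice of probe sets, variance model, spike-in set, replicate block and leaving out each array. Arrays with a CreX signal over 3 times the median formed the high spike-in set. Promoter motifs and protein sequences were not used here.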

Additional observations from a re-analysis of the deposited data

How the results depend on the processing

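With limma, 0 members had an adjusted p under 0.05 in the reported setting and in each of the 19 alternatives that allow a test. The median log2 difference of the members moved by more than the pooled SD of its array values (0.231) in the values as deposited (-1.65), in the arrays of high (-0.19) or low (-0.73) spike-in signal alone, and when either Δrsf2 array was left out (-0.80 without replicate 1, -0.15 without replicate 2); over all 5 arrays left out in turn it ran from -0.80 to -0.15. The count of members lower without overlap was 20 with arrays centred on their medians (beside 16.3% of all genes) and 25 as deposited (25.5%). It was 26 within the high set (55.5%) and 36 within the low set (43.9%). Leaving out wild-type replicates 1, 2 and 3 in turn gave 18 (21.0%), 13 (15.6%) and 17 (16.6%). Leaving out Δrsf2 replicates 1 and 2 in turn gave 32 (34.6%) and 20 (39.1%). Fewer arrays per group make overlap rarer by construction, and the other causes were not tested. With the replicate number as a block the members' median was -0.47, and no call changed. Deviations of same-numbered arrays from their group means correlated at 0.21 for number 1 and -0.17 for number 2 over all genes. Over the members these were 0.44 and -0.0053. The highest correlation was between Δrsf2 replicate 2 and wild-type replicate 3, at 0.47 over all genes and 0.67 over the members. With 2 Δrsf2 arrays their deviations mirror each other, so these values are not separate checks and cannot decide on pairing. The numbers were not taken as pairs.

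Signs of log2 differences turned in these settings. In the values as deposited, the lower trimmed mean of Δrsf2 replicate 1 lowers log2 differences in general, and the median of all genes was -1.19. As deposited: MRPL28 -0.69, MRPL31 -1.07, MRPL16 -1.09, MRP20 -0.88, MRPL44 -1.20, RML2 -1.17, MRM2 -0.16, MDM38 -0.92 and RPL9B -0.45. Scaled without quantiles: MRPL44 -0.039, RML2 -0.0078, MRPL3 0.077 and IMG2 0.0036. Centred on medians: MRPL31 -0.12, MRPL16 -0.14, MRPL44 -0.25 and RML2 -0.22. Array weights: IMG1 0.22 and IMG2 0.064. Replicate block: MRPL31 -0.054, MRPL44 -0.037, RML2 -0.0073 and MRPL3 0.032. Spike-in block: MRPL31 -0.011, MRPL44 -0.13 and RML2 -0.053. Low spike-in set: MRPL28 -0.94, MRPL31 -1.01, MRPL16 -0.48, MRPL44 -1.11, RML2 -0.062 and MRP49 0.012. High spike-in set: MRP20 -0.26, RML2 -0.040, MRPL7 0.025, MRPL38 0.42, MRPL33 0.33, MRPL8 0.26, MRPL24 0.69, MRPL36 0.054, MRPL32 0.22, MRPL27 0.19, MRPL17 0.13, IMG2 0.31, MRPL37 0.76, MNP1 0.70 and MEF2 0.20. With single arrays left out the differences of the genes whose sign turned ran from -0.98 to 0.90 for IMG1, -0.75 to 0.67 for IMG2, -0.19 to 0.22 for RML2, -0.68 to 0.37 for MRPL24, -0.10 to 0.038 for MRPL36, -1.06 to 1.42 for MRPL31, -1.10 to 1.16 for MRPL44, -0.15 to 0.065 for MRPL3, -1.24 to 2.18 for MRPL28, -0.43 to 0.69 for MRPL16, -1.65 to 0.015 for MRPL15, -0.55 to 0.084 for MRP49, -0.38 to 0.56 for MRP20, -0.82 to 0.10 for MRPL38, -2.20 to 0.22 for MRPL33, -1.33 to 0.54 for MRPL8, -1.37 to 0.33 for MRPL27, -1.45 to 0.42 for MRPL37, -2.11 to 0.18 for MNP1 and -1.38 to 0.34 for MEF2. RSF2, at -3.30 (both Δrsf2 arrays at the floor) with a limma adjusted p of 0.154, passed the threshold with arrays centred on their medians, without the floor, in the low set and without either Δrsf2 array. The cause of sign turns outside the values as deposited was not tested. Planned motif searches were not run.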
